A study of Mus musculus with 30 samples.

Results

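The mitochondrial ribosomal protein genes were taken as every gene whose symbol begins with Mrpl or Mrps followed by a digit and that had at least 100 exonic counts over the 18 RNA-seq libraries. This gave 77 of the 20300 genes in the exonic table, and a minimum of 10 or of 1000 counts gave the same 77. By symbol, 48 genes are named for the large subunit (Mrpl) and 29 for the small subunit (Mrps). The symbol alone decided the subunit, so that a gene such as Mrps18a, whose protein belongs to the large subunit, was counted as small. By the numbers in their symbols, 44 of the 77 genes were counted as conserved with bacteria and 33 as specific to mitochondria.

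The mitochondrial ribosome sits in the matrix, bound to the inner membrane, and translates the few respiratory chain and ATP synthase subunits that mitochondrial DNA encodes. All of its proteins are made from nuclear genes and imported, so that its assembly needs the nuclear genes for both subunits together with ribosomal RNA made inside the organelle. Doxycycline is a tetracycline, a class that binds bacterial ribosomes, and it can inhibit mitochondrial translation. Mouse embryonic stem (ES) cells rely strongly on glycolysis and keep an active respiratory chain.

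The RNA came from EKOiE-Ccna-Gfp, a mouse ES cell line (129/Ola) that lacks Esrrb, carries an Esrrb transgene switched on by doxycycline (DOX) and reports the cell cycle through Ccna2-Gfp. Esrrb is a nuclear receptor of the pluripotency network, and the study asked which of its binding sites are kept through mitosis and what the cells transcribe in early G1, late G1 and G2. Cells grew on gelatine in serum with LIF. Each sorted phase, that is early G1, late G1 or G2, had 3 libraries after 24 h of DOX withdrawal and 3 with DOX. Esrrb chromatin immunoprecipitation (ChIP-seq) used EKOiE cells, asynchronous (interphase) or collected by mitotic shake-off, with 2 libraries each after 48 h of withdrawal and 4 each with DOX. Wild-type E14Tg2a cells were used in place of EKOiE for ChIP-seq replicate 2 with DOX, in interphase and in mitosis. Withdrawal removed the drug and the induced Esrrb together, so their effects on the mitochondrial ribosome genes cannot be told apart. Nothing in the labels ties replicates to separate cultures, and p-values therefore measure the spread between these samples alone, which may be technical.

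The libraries held 11.1 to 31.8 M exonic and 6.10 to 20.8 M intronic counts. Esrrb itself, summed over phases, had 169.7, 184.4 and 171.0 CPM (counts per M counts, scaled by TMM) after withdrawal, against 277.1, 276.1 and 277.3 CPM with DOX. Every withdrawn sum lay below every DOX sum, in the direction the labels give, though the exonic counts do not separate the transgene from what the deleted gene may still make. Intronic Esrrb, summed over phases, had 94.2, 119.5 and 98.7 CPM after withdrawal, against 113.6, 118.4 and 111.8 CPM with DOX, and these ranges overlapped. The share of exonic Esrrb that came from each source was not tested. The ES cell markers Pou5f1, Sox2, Nanog, Zfp42, Dppa5a, Utf1, Fgf4 and Tdgf1 were all present, with a summed level of 3986 to 5937 CPM per library. The 8 markers of fibroblasts and feeders summed to 9.03 to 16.7 CPM, with Col3a1 at 0 in 6 libraries and Dcn, Lum and Postn at 0 in 5 each. The 8 markers of differentiated lineages summed to 8.09 to 11.2 CPM. The libraries were bulk RNA, in which fewer cells of a type and less RNA per cell cannot be told apart.

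The 77 genes together made up 0.419% to 0.511% of all exonic counts, with a median of 0.456%. In early G1 their summed level was 4379 ± 319 CPM after withdrawal and 4443 ± 110 CPM with DOX (SD, n = 3 each). In late G1 it was 4633 ± 166 CPM after withdrawal and 4744 ± 333 CPM with DOX, and in G2 it was 4772 ± 190 CPM after withdrawal and 4777 ± 353 CPM with DOX. The withdrawn and DOX ranges overlapped in each phase, and single libraries ran from 4073 CPM in early G1 withdrawn replicate 3 to 5091 CPM in late G1 DOX. Single genes had 3983 to 60567 exonic counts over all libraries, with a median of 17394. Mrpl45, which holds the ribosome at the inner membrane, had the highest CPM, with group means of 171.3 to 205.6, followed by Mrpl18 and Mrpl49. Mrps34, Mrps6 and Mrpl52 had the lowest CPM. The files give no exon length, so CPM ranks the counts and not the transcripts per gene.

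**Figure D1:**
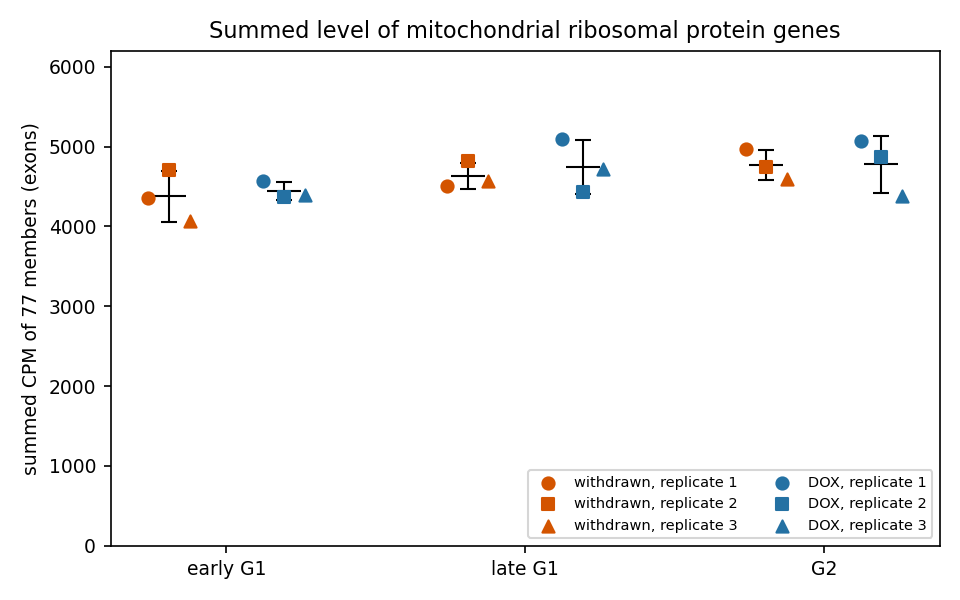
Summed level of the 77 mitochondrial ribosomal protein genes in CPM (vertical axis) in each of the 18 libraries, by phase, with withdrawn libraries left of DOX libraries and bars for the mean ± SD of 3. The withdrawn and DOX points overlap in every phase, and the means run from 4379 to 4777 CPM.

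After withdrawal of DOX the levels of nearly all mitochondrial ribosome genes lay close to those with DOX. With edgeR's quasi-likelihood test at an adjusted p of 0.05 over all genes, none of the 77 passed in early G1, late G1, G2 or the 3 phases summed. The same test called 0.163%, 0.461% and 0.972% of all genes in early G1, late G1 and G2 in that order, and 0.155% in the sums. At an unadjusted p under 0.05, edgeR picked 4, 5, 7 and 6 of the 77 in these 4 comparisons, of 1357, 1847, 2034 and 2073 genes in all. DESeq2 called 0, 1, 0 and 0, the exception being Mrpl43 in late G1 at a log2 change of -0.46 and a DESeq2 adjusted p of 0.0473. Over all genes DESeq2 called 0.986% in early G1, 2.41% in late G1, 3.26% in G2 and 3.57% in the sums.

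The size of the changes was bounded by their intervals. The 95% interval of the log2 change lay inside a 1.5-fold change in both directions for 68 of 77 genes in early G1, 67 in late G1, 67 in G2 and 71 in the sums. Over all genes tested the same held for 44.3%, 41.7%, 41.4% and 47.7%. The other 9, 10, 10 and 6 genes could differ by more, with interval ends from -0.74 to 0.92 in the single phases. The median absolute log2 change was 0.092, 0.096 and 0.117 in early G1, late G1 and G2, against 0.172, 0.194 and 0.200 over all genes, in which weakly expressed genes with larger errors weigh more.

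The median log2 change, withdrawn minus DOX, was -0.04 in early G1, -0.04 in late G1, -0.02 in G2 and -0.01 in the sums, against 0.00, 0.00, -0.01 and 0.01 over all genes. Of the 77 genes, 45, 46, 41 and 41 lay below 0 in these comparisons. The large subunit had medians of -0.02, -0.03, 0.02 and 0.02, and the small subunit -0.05, -0.07, -0.05 and -0.04. The genes conserved with bacteria had medians of -0.02, -0.02, 0.01 and 0.01, and the mitochondria-specific genes -0.04, -0.07, -0.05 and -0.02.

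The direction differed between replicates. In early G1, 32, 55 and 19 of the 77 genes were higher in the withdrawn library than in the DOX library of the same number, for replicates 1, 2 and 3. In late G1 the counts were 17, 56 and 35, and in G2 they were 34, 29 and 47, while over all genes the share stayed between 47.5% and 50.5%. The family thus lay mostly higher in some pairs and mostly lower in others. Across all 9 same-number pairs, 4 genes were higher after withdrawal in every pair (Mrpl13, Mrpl16, Mrpl45 and Mrpl50) and 7 were lower in every pair (Mrpl2, Mrpl28, Mrpl43, Mrpl57, Mrps16, Mrps17 and Mrps26). Over all genes 8.53% were higher and 8.86% lower in every pair.

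**Figure D2:**
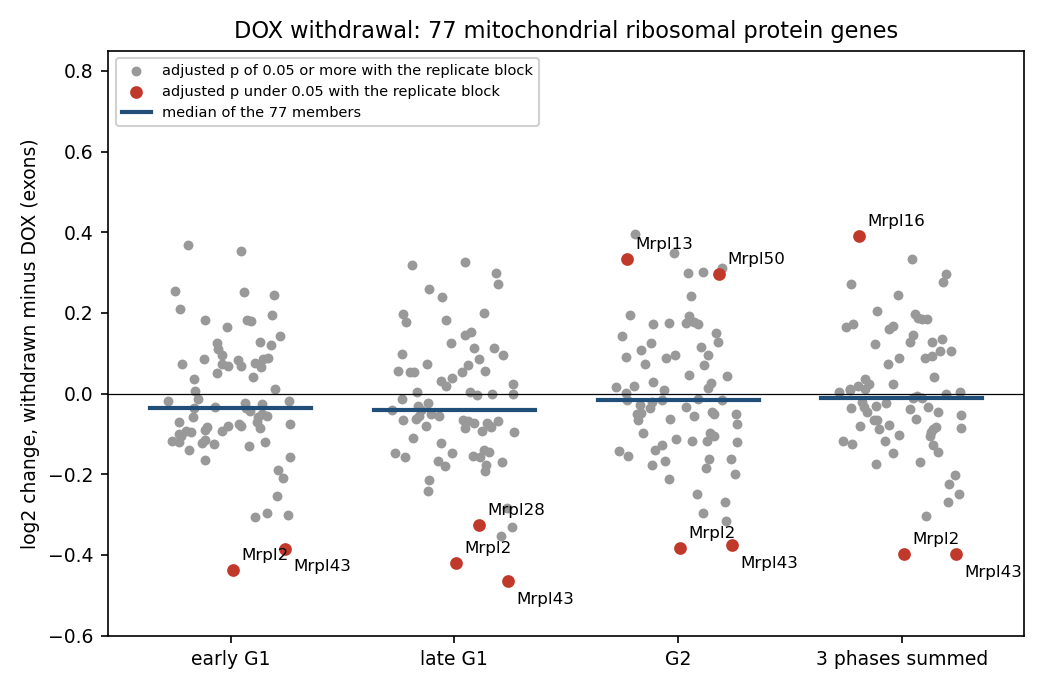
Log2 change, withdrawn minus DOX, of each of the 77 genes (vertical axis) in early G1, late G1, G2 and the 3 phases summed, with red points for genes past an edgeR adjusted p of 0.05 with the replicate number as a block. Points centre near 0, from -0.46 to 0.39, and Mrpl2 and Mrpl43 are the red points in every column.

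Libraries of the same replicate number deviated together in exons, so a fit with the number as a block is given beside the fit without it. With the block, 0 genes rose and 2 fell in early G1, 0 rose and 3 fell in late G1, 2 rose and 2 fell in G2, and 1 rose and 2 fell in the sums. The block raised the calls over all genes too, to 1.83% higher and 2.2% lower in early G1, 4.8% and 4.24% in late G1, 5.77% and 5.44% in G2, and 6.66% and 5.02% in the sums. The mitochondrial ribosome genes called, at most 4 of 77, were no larger a share than that of all genes called in either direction, 4.03%, 9.04%, 11.2% and 11.7%. The genes that passed were Mrpl2, Mrpl43, Mrpl28, Mrpl16, Mrpl13 and Mrpl50, all of the large subunit.

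Mrpl2 (NM_025302, mm9 chr17:46783196-46787081, plus strand) is the counterpart of a bacterial protein at the heart of the large subunit, needed for peptide bond formation. In early G1 it had 73.2, 73.4 and 62.0 CPM after withdrawal, against 96.6, 101.9 and 84.1 CPM with DOX. In late G1 it had 74.5, 77.6 and 64.2 CPM after withdrawal, against 100.7, 99.3 and 89.5 CPM with DOX. In G2 it had 77.9, 78.08 and 64.1 CPM after withdrawal, against 103.6, 105.5 and 78.10 CPM with DOX. Every withdrawn library lay below every DOX library of its phase, with withdrawn replicate 2 and DOX replicate 3 almost level in G2, and replicate 3 was the lowest in each group. With the block, Mrpl2 fell by 0.44 ± 0.08 log2 units in early G1 (SE, edgeR adjusted p = 0.00381), by 0.42 in late G1 (0.00299) and by 0.38 in G2 (0.00469). In the sums it averaged 72.0 ± 7.02 CPM after withdrawal and 94.9 ± 10.1 CPM with DOX (SD, n = 3 each), a log2 change of -0.40 ± 0.13 (edgeR adjusted p = 0.224), or -0.40 ± 0.08 with the block (edgeR adjusted p = 0.0153).

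Mrpl43 (NM_053164, mm9 chr19:45079503-45080932, minus strand) is a large-subunit protein with no bacterial counterpart. In early G1 it had 49.8, 52.6 and 39.1 CPM after withdrawal, against 65.5, 60.3 and 58.8 CPM with DOX. In late G1 it had 49.2, 49.7 and 47.6 CPM after withdrawal, against 76.8, 63.2 and 62.1 CPM with DOX. In G2 it had 50.5, 53.0 and 48.6 CPM after withdrawal, against 73.8, 68.7 and 54.9 CPM with DOX. The groups did not overlap in any phase, and the gap was widest in late G1. With the block Mrpl43 fell by 0.39 ± 0.10 in early G1 (SE, edgeR adjusted p = 0.0311), by 0.46 in late G1 (0.00852) and by 0.37 in G2 (0.0218) on the log2 scale. The sums averaged 49.0 ± 3.61 CPM after withdrawal and 64.6 ± 6.45 CPM with DOX (SD, n = 3 each), a log2 change of -0.40 ± 0.12 (edgeR adjusted p = 0.209), or -0.40 ± 0.09 with the block (edgeR adjusted p = 0.0187).

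The 250 bases before the start are shown for the genes that changed most in each direction, Mrpl2, Mrpl43 and Mrpl16. Those of Mrps15, which had an Esrrb peak at its start, are shown too. All are RefSeq sequences of GRCm38.p6, a later build than the mm9 of the peaks and gene positions, and were not placed against them. Capitals mark a match to 1 of the motifs searched after the files were at hand, on both strands: TCAAGGTCA (the Esrrb core) and AAGGTCA (its shorter form, held inside it), GCGCA, any base, GCGC (NRF1), CCGGAAG (ETS factors such as GABPA), AAGATGGC (YY1) and GGGGCGGGG (SP1).
Mrpl43 promoter, chr19:45006443-45006692 (minus strand): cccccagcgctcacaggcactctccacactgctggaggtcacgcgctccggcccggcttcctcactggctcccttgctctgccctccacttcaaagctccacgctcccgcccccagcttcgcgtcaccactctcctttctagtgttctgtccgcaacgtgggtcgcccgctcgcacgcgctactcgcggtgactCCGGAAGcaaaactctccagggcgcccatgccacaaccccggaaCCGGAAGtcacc
Mrpl2 promoter, chr17:46645971-46646220 (plus strand): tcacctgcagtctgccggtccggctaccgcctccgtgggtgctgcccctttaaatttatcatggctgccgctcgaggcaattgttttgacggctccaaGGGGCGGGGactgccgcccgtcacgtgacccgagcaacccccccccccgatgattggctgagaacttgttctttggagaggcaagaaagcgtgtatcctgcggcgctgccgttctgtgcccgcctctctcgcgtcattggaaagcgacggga
Mrpl16 promoter, chr19:11770165-11770414 (plus strand): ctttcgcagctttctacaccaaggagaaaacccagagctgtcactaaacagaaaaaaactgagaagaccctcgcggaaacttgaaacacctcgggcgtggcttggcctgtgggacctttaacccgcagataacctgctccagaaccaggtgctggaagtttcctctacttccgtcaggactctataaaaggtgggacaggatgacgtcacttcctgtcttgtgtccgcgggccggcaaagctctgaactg
Mrps15 promoter, chr4:126046678-126046927 (plus strand): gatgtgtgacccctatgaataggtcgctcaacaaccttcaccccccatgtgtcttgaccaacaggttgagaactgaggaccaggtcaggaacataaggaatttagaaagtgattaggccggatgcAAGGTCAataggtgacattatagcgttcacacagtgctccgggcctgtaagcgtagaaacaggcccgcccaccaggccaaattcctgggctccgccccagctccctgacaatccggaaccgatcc
Mrpl43 held the ETS motif at -56 and -12 from the start, Mrpl2 the SP1 motif at -152 and Mrps15 the AAGGTCA motif at -125, while the Mrpl16 window held none of these letters.

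Of the 77 genes, 68 had a promoter entry, searched over 250 bases before to 50 after the start. The ETS motif was in 25 of 68 (36.8%), against 18.4% of the 10713 genes with at least 100 counts and 9.93% of all 27025 promoters. The NRF1 motif was in 13 (19.1%), against 10.6% and 5.19%, and the YY1 motif in 12 (17.6%), against 4.82% and 3.19%. The SP1 motif was in 13 (19.1%), against 24.6% and 12.9%. The Esrrb core was in 0 of 68, against 0.355% and 0.466%, and AAGGTCA was in 4 (5.88%), against 4.07% and 5.38%. These 4 were Mrpl12, Mrpl36, Mrps15 and Mrps21, of which Mrps15 alone had an Esrrb peak within 1 kb of its start. The windows of Mrpl34, Mrpl40, Mrpl43 and Mrps27, which also had such a peak, held no AAGGTCA. A match is a run of letters and was not tested as a binding site.

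Of the other genes that passed with the block, Mrpl28, conserved with bacteria, lay lower after withdrawal. Summed over phases it had 95.0, 101.9 and 91.5 CPM after withdrawal, against 130.7, 113.8 and 111.3 CPM with DOX, with no overlap. With the block its late G1 level fell by 0.32 ± 0.09 log2 units (SE, edgeR adjusted p = 0.0389), while early G1 (0.0709), G2 (0.0531) and the sums (-0.30 ± 0.09, 0.0540) missed the threshold.

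Mrpl16 (mm9 chr19:11844904-11849436), whose bacterial counterpart lies near the site where tRNAs enter, was the gene with the largest increase in the sums. It had 42.8, 37.6 and 37.1 CPM after withdrawal, against 31.1, 26.6 and 31.9 CPM with DOX. All 3 withdrawn sums were higher than the DOX sums, and the log2 change was 0.39 ± 0.12 (SE, edgeR adjusted p = 0.220), or 0.39 ± 0.09 with the block (edgeR adjusted p = 0.0251). In single phases Mrpl16 did not pass with the block, at 0.37 in early G1 (edgeR adjusted p = 0.111), 0.32 in late G1 (0.122) and 0.39 in G2 (0.0549).

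Mrpl13, counterpart of a bacterial protein bound early in large-subunit assembly, had 82.8, 74.5 and 73.5 CPM after withdrawal, against 66.2, 61.3 and 63.6 CPM with DOX, in the sums. The groups did not overlap, and with the block Mrpl13 rose by 0.33 ± 0.09 in G2 alone (SE, edgeR adjusted p = 0.0322), with 0.21 in early G1 (0.222) and 0.20 in late G1 (0.199). Mrpl50, a mitochondria-specific protein, had 43.9, 49.9 and 61.3 CPM after withdrawal, against 31.3, 44.2 and 50.8 CPM with DOX, in G2. These ranges overlapped, since replicates differed more than the states did, but each withdrawn library lay above the DOX library of its own number. With the block Mrpl50 rose by 0.31 ± 0.10 in G2 (SE, edgeR adjusted p = 0.0454), whereas its summed change without the block was 0.28 ± 0.20 (edgeR adjusted p = 0.579). The differences in response between phases were tested directly: none of the 77 genes passed in any of the 3 pairs of phases with edgeR (0% of all genes), and 0 had an unadjusted p under 0.05, so a response in G2 alone was not shown for any of them. DESeq2 also called 0 in each.

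**Figure D3:**
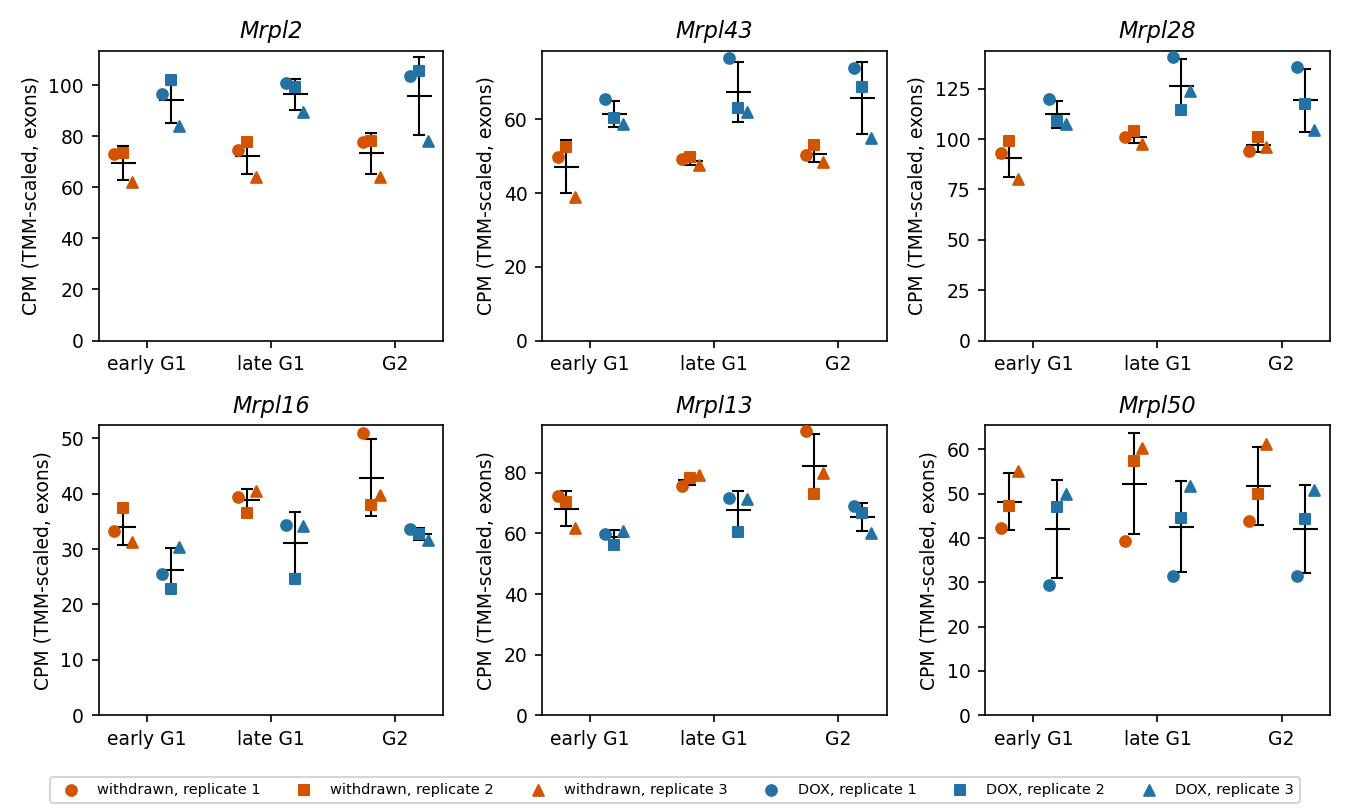
Level in CPM (vertical axis, from 0) of Mrpl2, Mrpl43, Mrpl28, Mrpl16, Mrpl13 and Mrpl50 in each library, withdrawn left of DOX within early G1, late G1 and G2, with bars for the mean ± SD of 3. Mrpl2 and Mrpl43 lie lower after withdrawal in every phase, while the Mrpl50 ranges overlap in each phase, for example 43.9 to 61.3 CPM after withdrawal and 31.3 to 50.8 CPM with DOX in G2.

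In the sums, the ranges of the withdrawn and DOX sums overlapped for 65 of the 77 genes, lay apart with withdrawn higher for 7 (Mrpl13, Mrpl16, Mrpl37, Mrpl42, Mrpl45, Mrps15 and Mrps6) and apart with withdrawn lower for 5 (Mrpl2, Mrpl28, Mrpl39, Mrpl43 and Mrps17). Over all genes 10.6% lay apart with withdrawn higher and 10.1% with withdrawn lower, so that separate ranges were not more common here than elsewhere. Mrpl45 had 206.7, 202.5 and 194.7 CPM after withdrawal, against 193.2, 168.9 and 168.0 CPM with DOX, a log2 change of 0.19 ± 0.11 (SE, edgeR adjusted p = 0.477). Mrpl37, mitochondria-specific, had 56.0, 54.7 and 55.2 CPM after withdrawal, against 42.4, 47.5 and 50.1 CPM with DOX (0.24 ± 0.11, edgeR adjusted p = 0.367). Mrps17, the small-subunit gene with the largest decrease, had 49.0, 53.2 and 48.9 CPM after withdrawal, against 67.0, 57.8 and 57.1 CPM with DOX (-0.27 ± 0.12, edgeR adjusted p = 0.341).

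The stalk of the large subunit recruits the translation factors and is built on Mrpl11 and Mrpl10, with copies of Mrpl12. Summed over phases, Mrpl12 differed by 0.33 ± 0.16 (SE, edgeR adjusted p = 0.383), Mrpl11 by 0.11 ± 0.13 and Mrpl10 by 0.02 ± 0.12 on the log2 scale. Mrpl12 had 53.0, 54.7 and 40.6 CPM after withdrawal, against 32.8, 43.5 and 41.4 CPM with DOX, and these ranges overlapped. Of other genes conserved with bacteria, Mrpl3 stood at -0.03 ± 0.11, Mrpl4 at -0.03 ± 0.12, Mrps5 at -0.05 ± 0.12, Mrps7 at -0.12 ± 0.14 and Mrps12, of the decoding centre, at -0.10 ± 0.12, whereas Mrpl2 and Mrpl16, described above, are conserved too. The Mrps18 paralogs spread over both signs, with Mrps18a at -0.07 ± 0.11, Mrps18b at 0.13 ± 0.13 and Mrps18c at 0.16 ± 0.12.

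Among mitochondria-specific genes, Mrps22 changed by -0.02 ± 0.11, Mrps27, an RNA-binding protein of the small subunit, by 0.01 ± 0.13, Mrpl44 by 0.04 ± 0.11 and Mrps34 by 0.20 ± 0.14 on the log2 scale (SE). None of these passed the edgeR test. Mrpl23, whose bacterial counterpart lines the exit of the peptide tunnel, had 52.4, 53.2 and 48.1 CPM after withdrawal, against 71.1, 61.2 and 50.5 CPM with DOX (-0.25 ± 0.14, edgeR adjusted p = 0.466). Mrps10, conserved with bacteria, had 24.1, 20.2 and 25.5 CPM in G2 after withdrawal, against 12.8, 21.5 and 22.1 CPM in G2 with DOX, and its summed change was 0.30 ± 0.24 (edgeR adjusted p = 0.619). DOX replicate 1 alone was low for Mrps10, in every phase, at 9.50 CPM in early G1 and 11.6 CPM in late G1.

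Intronic counts, which come largely from unspliced RNA, could be tested for 72 of the 77 genes in single phases and 73 in the sums. The genes not tested in single phases were Mrpl32, Mrpl36, Mrpl57, Mrps2 and Mrps34. None passed without the block in any phase or in the sums, where edgeR called 0% of all genes in early G1, 0.0142% in late G1, 0.0142% in G2 and 0% in the sums. At an unadjusted p under 0.05 there were 4, 6 and 5 of 72 and 8 of 73, beside 806, 820 and 1084 of all 14075 genes by phase and 1007 of 14966 in the sums. DESeq2 also called 0 of the mitochondrial ribosome genes in each, beside 0.0924%, 0.128% and 0.32% of all genes by phase and 0.481% in the sums. More genes lay below 0 than above it, 51, 46 and 50 of 72 by phase and 53 of 73 in the sums, with median log2 changes of -0.10, -0.07, -0.09 and -0.11, against 0.01, -0.00, 0.01 and 0.00 over all genes. The libraries differed in this: in withdrawn replicate 1 the median member lay 0.21, 0.14 and 0.24 below the mean of all libraries in early G1, late G1 and G2, while in DOX replicate 1 it lay 0.03, 0.01 and 0.01 below. The same median in replicate 2 was 0.07, 0.09 and 0.06 after withdrawal and 0.02, 0.07 and 0.07 with DOX, and in replicate 3 it was -0.14, 0.08 and 0.05 after withdrawal and 0.01, 0.16 and 0.05 with DOX. Without withdrawn replicate 1 the genes below 0 numbered 46 of 73 in early G1, 38 of 73 in late G1, 31 of 73 in G2 and 43 of 74 in the sums, a comparison chosen after seeing the data. These were the lowest counts when each library or sum was left out in turn. The ranges were 46 to 57 in early G1, 38 to 52 in late G1, 31 to 54 in G2 and 43 to 58 in the sums. With the block only Mrpl2 passed, and only in the sums, where edgeR called 3.48% of all genes.

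Intronic Mrpl2 had 15.0, 21.9 and 16.5 CPM after withdrawal, against 25.6, 25.5 and 21.8 CPM with DOX, with a narrow overlap. Its summed intronic log2 change was -0.45 ± 0.16 (SE, edgeR adjusted p = 0.660), or -0.47 ± 0.11 with the block (edgeR adjusted p = 0.0328), close in size to the exonic change. Intronic Mrpl43 had 2.55, 2.74 and 2.03 CPM after withdrawal, against 5.08, 3.92 and 2.89 CPM with DOX, a log2 change of -0.70 ± 0.25 (edgeR adjusted p = 0.655), or -0.69 ± 0.19 with the block (edgeR adjusted p = 0.0652). Of the genes that rose in exons with the block, the summed intronic log2 change was 0.05 ± 0.32 for Mrpl16, -0.22 ± 0.15 for Mrpl13 and -0.00 ± 0.16 for Mrpl50. Whether exonic and intronic changes differed was not tested. The intronic table was uneven, as Mrps28 held 48.1% of all intronic counts of the set, followed by Mrpl1 with 3.90% and Mrps9 with 3.85%. Mrps28 spans mm9 chr3:8802145-8923857 and, summed over phases, had 1010, 1375 and 1047 intronic CPM after withdrawal, against 1119, 1229 and 1207 with DOX, and it weighs heavily in any total over introns.

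The sort by Ccna2-Gfp allowed the genes to be followed from early G1 to late G1 and G2. No gene of the family passed between any pair of phases, and neither did any of the 14092 genes tested with edgeR (0%), with or without the block. At an unadjusted p under 0.05, the withdrawn cells had 0 of the 77 for late G1 minus early G1, 4 for G2 minus early G1 and 0 for G2 minus late G1, and the DOX cells had 1, 1 and 0. Over all 14092 genes the same threshold was met by 184, 588 and 356 in the withdrawn cells and by 136, 319 and 174 in the DOX cells. DESeq2 called 0 of the 77 in each. The sizes of the differences were small: in the DOX cells the 95% interval lay within 1.5-fold for 72 genes for late G1 minus early G1, 69 for G2 minus early G1 and 76 for G2 minus late G1. In the withdrawn cells it did so for 74, 71 and 75.

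Although no gene passed, the directions were shared. Late G1 minus early G1 was above 0 for 64 of 77 genes in the withdrawn cells and 69 in the DOX cells, with median log2 differences of 0.08 and 0.10. G2 minus early G1 was above 0 for 69 in each, with medians of 0.11 and 0.10, while all genes had medians of -0.00 and 0.00. G2 minus late G1 was nearer to even, with 49 in the withdrawn cells and 42 in the DOX cells, and medians of 0.05 and 0.01. The genes of a family are not independent, so these counts are a description of 3 libraries per group.

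The shared direction did not hold in every replicate. For G2 minus early G1, 67, 44 and 74 of the 77 genes were higher in G2 in withdrawn replicates 1, 2 and 3, and 65, 64 and 39 in DOX replicates 1, 2 and 3. For late G1 minus early G1 the counts were 53, 44 and 75 in withdrawn cells and 67, 50 and 61 in DOX cells. Leaving out each library in turn moved the G2 minus early G1 count between 58 and 74 in withdrawn cells and between 57 and 71 in DOX cells. Cytosolic ribosomal protein genes, of which 78 were tested, were above 0 for 62 with a median of 0.07 in withdrawn cells and for 46 with a median of 0.02 in DOX cells for the same pair of phases.

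For G2 minus early G1 with DOX, the genes with the largest increase were Mrpl16 (0.31 ± 0.15), Mrps17 (0.28 ± 0.13), Mrps31 (0.27 ± 0.14), Mrps27 (0.26 ± 0.16) and Mrpl39 (0.24), on the log2 scale with SE. The lowest were Mrps9 (-0.10 ± 0.10), Mrpl36 (-0.07 ± 0.11), Mrps26 (-0.07 ± 0.18), Mrpl33 (-0.03 ± 0.16) and Mrpl23 (-0.03 ± 0.16). Mrpl16 averaged 33.9 ± 3.16, 38.8 ± 2.04 and 42.9 ± 6.99 CPM in early G1, late G1 and G2 after withdrawal (SD, n = 3 each). With DOX it averaged 26.2 ± 3.92, 31.1 ± 5.58 and 32.7 ± 1.07 CPM in the same phases. The order of the means was the same in both states, and no step between phases passed the edgeR test.

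**Figure D4:**
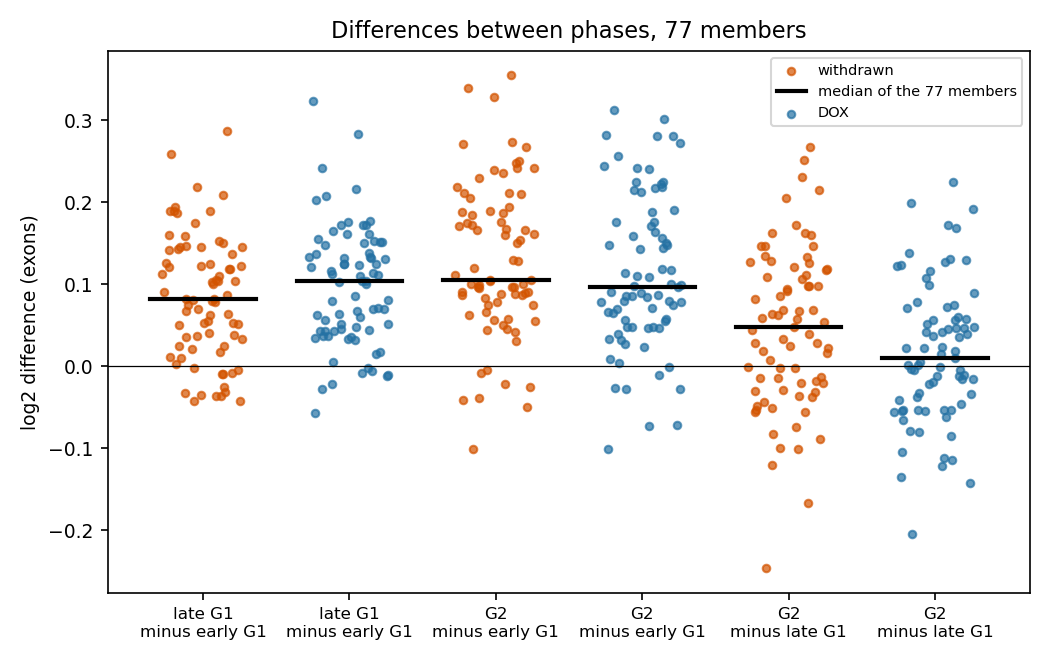
Log2 differences between phases (vertical axis) of each of the 77 genes, for each pair of phases, withdrawn cells left of DOX cells. Points for late G1 minus early G1 and G2 minus early G1 sit mostly above 0, with medians of 0.08 to 0.11, and those for G2 minus late G1 sit around 0.

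Within groups, the genes rose and fell together from library to library. Over the 18 libraries, after the group means were taken off, the median Pearson r between 2926 pairs of members was 0.30, with 70.6% of pairs above 0. Between members and all other genes the median r was -0.01, with 49.1% above 0. The libraries share depth and composition effects, and these r are descriptions with no test. Mrps7 (median r with the other members 0.61), Mrpl54 (0.59) and Mrpl11 (0.58) followed the set most closely. Mrps10 (-0.44), Mrpl50 (-0.42) and Mrps2 (-0.35) ran against it, and 14 of the 77 had a negative median r. The median member stood between 0.20 below its mean in early G1 withdrawn replicate 3 and 0.15 above it in late G1 DOX replicate 1, on the log2 scale. The spread of all genes about their group means was highest in G2 withdrawn replicate 1 and late G1 withdrawn replicate 1, at 0.384 and 0.379 log2 units.

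The genes lie on 17 chromosomes, most often on chromosome 11, which holds 10. A neighbouring gene on the other strand began within 1000 bp of the start for 24 of the 77 (31.2%), against 7.74% of all genes in the exonic table. That share includes genes with few or no counts, and the share among genes with at least 100 counts was not taken. Some of these partners are mitochondrial too: Mrpl46 and Mrps11 start 41 bp apart, Mrpl43 and Peo1, the helicase of mitochondrial DNA, 115 bp apart, and Mrps12 and Sars2, a mitochondrial seryl-tRNA synthetase, 186 bp apart. While Mrpl43 was lower, Peo1 had a summed log2 change of 0.24 ± 0.12 (SE, edgeR adjusted p = 0.397; 0.129 with the block). For 8 genes another gene overlaps the same stretch, on the same strand for Mrpl53, Mrps23 and Mrps6 and on the opposite strand for Mrpl19, Mrpl24, Mrpl41, Mrpl49 and Mrps25, and their counts are uncertain, with the strand setting of the counting not given in the sources used here. None of the 6 genes that passed with the block is among them.

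Esrrb peaks lay within 1 kb of the start of 9 of the 77 genes (11.7%), against 5.86% of all genes and 7.69% of the 14182 genes with at least 100 counts. These 9 genes, Mrpl34, Mrpl4, Mrpl40, Mrpl43, Mrpl54, Mrps15, Mrps23, Mrps25 and Mrps27, had 10 peaks. The authors class the Mrpl54 peak as Bookmarked, that is kept in mitosis, and the other 9 as Lost. Of the 6 genes that passed with the block only Mrpl43 was among them, and the nearest peak to Mrpl2 lay 4954 bp from its start.

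In interphase all 10 peaks were lower after withdrawal, as were 99.6% of all 14559 peaks with limma. Their median log2 change was -3.71, against -3.74 over all peaks. Only peaks called for Esrrb were measured, so a fall after withdrawal may follow from how they were chosen. The limma tests of withdrawal, here and in mitosis, cannot separate this from a result about these genes. The Mrpl43 peak (mm9 chr19:45079651-45080250, 982 bp inside the gene) had log2 heights of -1.19 and -1.14 after withdrawal, against 1.05, 2.00, 1.89 and 0.32 with DOX, in reads per kb of peak and M reads. The groups did not overlap, and the change was -2.48 ± 0.64 (SE, limma adjusted p = 7.1e-04). The Mrps15 peak (mm9 chr4:125723701-125724150, -246 bp from the start) had heights of -1.58 and -1.02 after withdrawal, against 1.39, 2.47, 2.01 and 0.32 with DOX (-2.84 ± 0.63, limma adjusted p = 1.6e-04). Mrps15 RNA lay on the other side, with a summed log2 change of 0.19 ± 0.11 (edgeR adjusted p = 0.502). The log2 RNA changes of the other genes with a peak were -0.09 ± 0.12 for Mrpl34, -0.03 ± 0.12 for Mrpl4, -0.02 ± 0.11 for Mrpl40, -0.15 ± 0.15 for Mrpl54, -0.13 ± 0.12 for Mrps23, -0.04 ± 0.12 for Mrps25 and 0.01 ± 0.13 for Mrps27. All 9 genes thus had a lower peak, as nearly all peaks did. Of these genes Mrpl43 alone had an RNA change that passed with the block, which called 11.7% of all genes in the sums. The peaks were measured after 48 h of withdrawal in asynchronous cells, and the RNA after 24 h in sorted EKOiE-Ccna-Gfp cells. A link between peak and RNA was not tested.

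In mitosis, 4 of the 10 peaks passed as lower after withdrawal, against 22.4% of all peaks, with a median log2 change of -1.73 against -1.33. They were the peaks by Mrpl4 (-2.61, limma adjusted p = 0.00785), Mrpl54 (-1.80, 0.0344), Mrps15 (-1.84, 0.0384) and Mrps23 at +693 bp (-1.79, 0.0437). Mitosis minus interphase with DOX was lower for 8 of 10, against 91.4% of all peaks, with a median of -1.89 against -2.26. Mrpl54 was least reduced, at -0.56 (limma adjusted p = 0.265), but its class, Bookmarked, already means kept in mitosis. Its mitotic heights were -1.70 and -1.25 after withdrawal, against 0.62, 0.10, -0.00 and 0.57 with DOX, and its interphase heights -1.80 and -0.28 after withdrawal, against 0.47, 1.15, 0.93 and 0.97 with DOX. The reads behind a peak were few after withdrawal, 0 to 35 in interphase (median 7.5) and 0 to 26 in mitosis (median 6.5), against 6 to 177 (median 73) and 3 to 91 (median 28.5) with DOX. The mitotic count rested on single libraries: it was 0 without withdrawn replicate 1 and 8 without withdrawn replicate 2, and 1 without DOX replicate 2, 3 or 4.

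**Figure D5:**
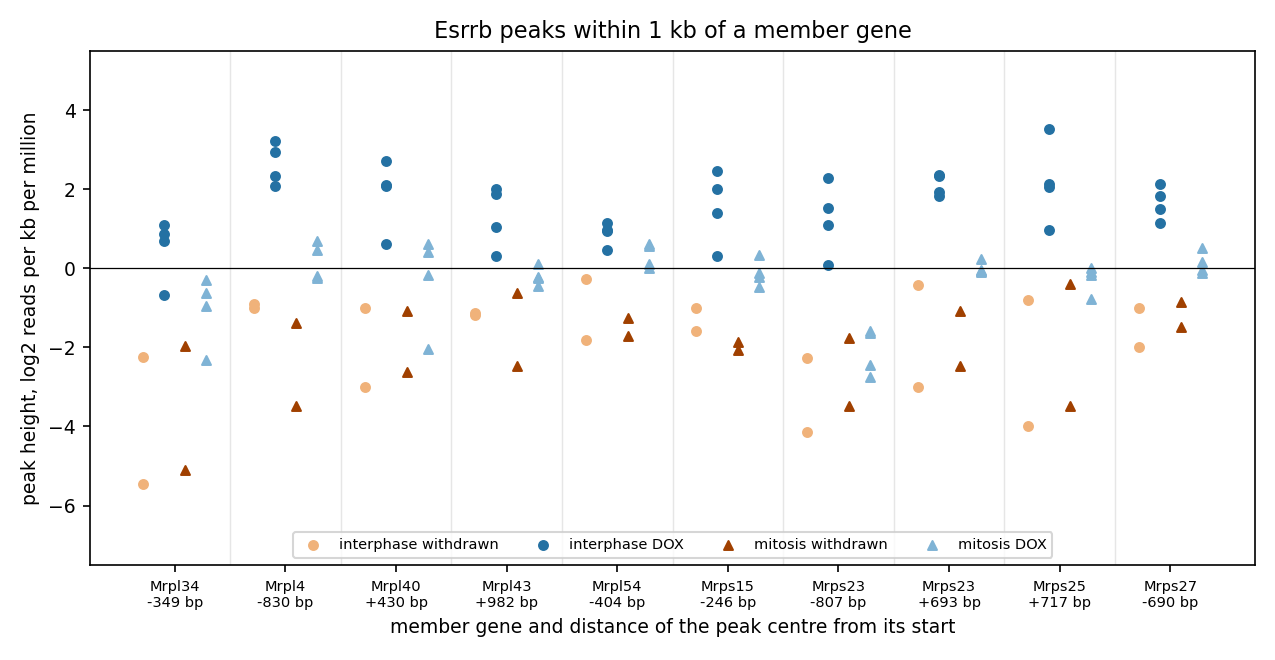
Log2 height (vertical axis, reads per kb and M reads) of the 10 Esrrb peaks within 1 kb of a mitochondrial ribosome gene, per library, for interphase and mitosis, withdrawn left of DOX. In interphase the withdrawn points lie below the DOX points, as for Mrpl43 at -1.19 and -1.14 against 0.32 to 2.00. The Mrpl54 peak, classed as Bookmarked, keeps most of its height in mitosis with DOX.

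Other genes of mitochondrial protein synthesis were followed as lists, with edgeR and the block. Of 7 further mitochondrial ribosome proteins with other symbols, Ptcd3, an RNA-binding protein of the small subunit, rose in every phase, by 0.32 (edgeR adjusted p = 0.0443), 0.38 (0.0125) and 0.29 (0.0352), and had 261.1, 299.2 and 291.8 CPM after withdrawal, against 216.6, 220.8 and 233.6 CPM with DOX, in the sums. None of the 7 passed without the block. Of 16 translation factors, Gfm2, which recycles the ribosome, rose in G2 (0.31, edgeR adjusted p = 0.0433), and Mtif3, an initiation factor (-0.35, 0.0208), and Oxa1l, which inserts new chains into the membrane (-0.36, 0.0404), fell there. Of 20 mitochondrial aminoacyl-tRNA synthetases and 12 genes of mitochondrial DNA upkeep and transcription none passed in any phase with or without the block, with summed medians of -0.07 and 0.14. Of 26 assembly and rRNA modification genes, Rpusd3 fell in late G1 (-0.39, edgeR adjusted p = 0.0445). With the block edgeR called 4.03%, 9.04% and 11.2% of all genes in early G1, late G1 and G2, so a few calls in such lists are not set apart from that share. Without the block edgeR called none of the listed genes. In the sums 1 of the 7, 0 of the 16, 0 of the 20, 1 of the 26 and 0 of the 12 had an unadjusted p under 0.05. The count over all genes at that threshold is given above.

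Genes that respond to impaired mitochondrial translation in other settings were also measured. Of 15 tested genes of mitochondrial quality control and stress, none passed without the block (2 at an unadjusted p under 0.05 in the sums, edgeR), and with it 2, 3, 2 and 4 fell in early G1, late G1, G2 and the sums, while 0 rose. The share of all genes that fell with the block was 2.2%, 4.24%, 5.44% and 5.02% in these comparisons. In the sums 7 of the 15 lay above 0 and 8 below. The chaperones Hspd1 (0.21 ± 0.12, edgeR adjusted p = 0.477 without the block) and Hspe1 (0.08 ± 0.10, 0.756) were among those above 0. Hspe1 had 391.3, 425.2 and 394.5 CPM after withdrawal, against 386.9, 379.2 and 376.9 CPM with DOX. These did not overlap, and 10.6% of all genes lay apart in this direction. Its intronic sums were lower after withdrawal, at 21.4, 25.8 and 24.8 CPM, against 27.8, 29.1 and 27.2 CPM with DOX. The share of all genes with such a gap was not counted in introns, so this is a description only. Atf4, the transcription factor of the integrated stress response, fell by 0.45, 0.58 and 0.72 log2 units in early G1, late G1 and G2 (edgeR adjusted p = 0.0493, 0.00868 and 0.00204, all with the block). Its sums of 136.5, 200.9 and 281.9 CPM after withdrawal overlapped those with DOX, 212.4, 337.8 and 361.6 CPM. Asns, an asparagine synthetase gene and Atf4 target, Trib3, a pseudokinase of the same response, and Gdf15, a secreted stress signal, fell in the sums by 0.30 (edgeR adjusted p = 0.0437 with the block), 0.56 (0.0142) and 0.76 (0.0279). Among 10 tested regulators of mitochondrial genes, Myc passed in late G1 without the block, at a log2 change of 1.21 ± 0.26 (edgeR adjusted p = 0.0450), beside Esrrb at -0.94 ± 0.14 (0.00385). Pprc1, a coactivator of NRF1, had 146.0, 85.6 and 84.3 CPM after withdrawal, against 62.4, 60.8 and 63.7 CPM with DOX, in the sums, and with the block rose in late G1 by 0.64 (edgeR adjusted p = 0.0406) and in G2 by 0.83 (0.0104). Cytosolic ribosomal protein genes had median log2 changes of -0.11, -0.09 and -0.07 in early G1, late G1 and G2, with 68, 62 and 57 of 78 below 0, beside the -0.04, -0.04 and -0.02 of the mitochondrial ones.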

How the data were processed

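The 18 RNA-seq and 12 ChIP-seq libraries were grouped by their labels. Exons and introns have a deposited table each, of raw counts by RefSeq transcript, per the file headers. Build mm9, CASAVA 1.8, Bowtie and DESeq2 are named, without their roles, in the submitters' processing notes. Counting tool, annotation version and strand setting: not given in the sources used here. A deposited Esrrb peak table holds other values, log2 heights written with a decimal comma, whose steps fit whole reads per kb of peak and M reads within 0.05 read. The word noco in its headers was read as mitosis, matched by number. How the authors called and classed peaks was not given in those sources.

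Counts were fitted in R 4.3.3 with edgeR 4.0.16 (filterByExpr, TMM, 6 group means over 18 libraries, quasi-likelihood F tests, Benjamini-Hochberg adjustment over 14092 exonic, 14075 intronic, and for sums 14847 and 14966 genes, threshold 0.05). The SE is the absolute log2 change divided by the square root of F. Counts were also summed over the 3 phases per replicate number and DOX state, since phases of a number may share a culture. CPM are TMM-scaled. Peak heights were fitted with limma 3.58.1 (trend, 14559 peaks). Statistical scripts were tested on simulated data. The members, lists and motifs were chosen with earlier results of these data known. Named genes were those past the threshold, the 5 largest changes each way at 20 CPM or more in the sums and in G2 minus early G1 with DOX, the 3 highest and lowest CPM, those with a peak within 1000 bp, members of known role, and the 10 of lowest p with the block. Names beyond this were chosen after their values were seen.

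The replicate numbers come from the titles. Same-number deviations correlated in exons at 0.114 to 0.527 in all 9 pairs. In introns they did so at 0.191 to 0.439, apart from 0.0916 for early G1 replicate 2, which missed the limit of 0.1 used for pairing. Exonic and intronic counts come from the same libraries. Over libraries of different groups the median intronic r was 0.33 for the same number and -0.16 for other numbers. In exons these medians were 0.40 and -0.21. Alternatives were DESeq2 1.42.0 and its size factors, no filter, the block, only the libraries compared, and each library left out. The number of libraries per group limits precision.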

Additional observations from a re-analysis of the deposited data

Results flagged for a closer look

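The Esrrb peak at -807 bp from the start of Mrps23 responded to withdrawal differently in mitosis and interphase. Its log2 change was -0.52 in mitosis and -4.45 ± 0.95 in interphase (SE), a difference of 3.94 (limma adjusted p = 0.0336). It was the only 1 of the 10 peaks near mitochondrial ribosome genes to pass this test, against 37.5% of all 14559 peaks. Its reads were few: 0 and 5 after withdrawal, against 37, 49, 63 and 31 with DOX, in interphase, and 1 and 10 after withdrawal, against 6, 13, 10 and 3 with DOX, in mitosis. The part of these low counts in the difference was not tested.

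The other Mrps23 peak, 693 bp after the start, had a log2 height of 0.2389 in mitosis DOX replicate 4, against -0.08, -0.05 and -0.09 in the other DOX libraries, a single library far from 3 that lie close together. Chance singles out about 1 in 20 such groups.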

How the results depend on the processing

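Calls of mitochondrial ribosome genes under another size factor, without the filter, with only the 6 libraries compared and with any single library left out stayed at 0 in every RNA comparison in which these were run (no library was left out for differences in response between phases, and phase pairs were not rerun in introns). With DESeq2, 1 gene was called in late G1. With the replicate block, the counts were 2 in early G1, 3 in late G1, 4 in G2 and 3 in the sums. In intronic sums the count was 1, with the intronic pair of early G1 replicate 2 below the limit used for pairing. The block changed no other call. Sums over early and late G1 with the block, added after seeing the data, gave 2 (853 genes, 5.94%, in all). With the block, Mrpl2 (-0.40; -0.42 in G1 alone), Mrpl43 (-0.40; -0.42) and Mrpl16 (0.39) crossed the threshold. Over all alternatives the summed log2 change ran from -0.48 to -0.32 for Mrpl2, -0.47 to -0.33 for Mrpl43, 0.31 to 0.44 for Mrpl16 and 0.08 to 0.43 for Mrpl50. The family median ran from -0.09 to 0.04 in early G1 and -0.06 to 0.03 in the sums. Mitotic peaks lower after withdrawal numbered 1 without the wild-type libraries and 0 to 8 with a library left out, where a lone withdrawn library is assumed to vary like the other groups. Genes with a peak numbered 4 within 500 bp (5.19%), 20 within 5000 bp (26%) and 53 within 50000 bp (68.8%). Of all genes with at least 100 counts, 2.94%, 18.8% and 60.8% had a peak within these distances. The cause of these shifts was not tested.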
